A study of Mus musculus with 2 samples.

Results

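The genes described here encode the binding proteins, receptors and first adaptors of the insulin-like growth factors (IGFs). They were 10 genes chosen by name: Igfbp2, Igfbp3, Igfbp4, Igfbp5, Igfbp7, Igf1r, Igf2r, Insr, Irs1 and Irs2. The files list them in lower case (igfbp2, igfbp3, igfbp4, igfbp5, igfbp7, igf1r, igf2r, insr, irs1, irs2), and they are written here in the usual mouse form. Of the 10205 genes listed for either library, 9 of the 10 were listed for both, and Irs1 was listed for the exposed library alone. The data are single-cell RNA counts from postnatal day 2 C57BL/6J whole kidney, in 1 control library and 1 library from mice exposed to maternal diabetes (labelled DM_Exp). Per the series' design text, each library held pooled cells from 1 kidney of male mice. The sources used here do not say how maternal diabetes was produced, and neither group carries an engineered allele in the labels. With 1 library in each group no test between groups was possible, and a difference between the libraries cannot be told apart from one between kidneys, litters or preparations.

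IGF-I and IGF-II are secreted growth factors that act through the type 1 receptor (Igf1r), a tyrosine kinase, and through the related insulin receptor (Insr). Activated receptors recruit the docking proteins Irs1 and Irs2, which pass the signal to phosphoinositide 3-kinase and Akt. The type 2 receptor (Igf2r), also the receptor for mannose 6-phosphate, carries IGF-II to lysosomes and has no kinase. Binding proteins hold IGFs in tissue fluid and blood, where they can keep them from the receptor or prolong their life, and proteases that cut the binding proteins set the factors free. Igfbp7 binds IGFs weakly compared with the classical binding proteins. In the newborn mouse kidney new nephrons still form, so progenitors, immature tubules and mature cells are present together.

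The control library held 9071 cells and 39442253 unique molecular identifiers (UMIs, each marking 1 captured transcript), and the exposed library 5494 cells and 28381167 UMIs. The median control cell had 3453 and the median exposed cell 4251.5 UMIs, and 16.2% and 11.6% of all UMIs came from the mitochondrial genome. The libraries shared 14 cell barcodes. The authors' clusters, 10 in each library, are numbered only. They were matched to classes by marker genes and are called "like" the cell type whose markers they hold. These classes were nephron progenitor and differentiating nephron-like cells (called nephrogenic below), stroma-like, endothelium-like, podocyte-like, proximal tubule-like, and loop of Henle, distal tubule and intercalated-like cells (called distal below). The others were macrophage and neutrophil-like cells, 2 mitochondria-rich tubule classes and an unnamed class in which 96.5% and 97.5% of UMIs were mitochondrial, and these 3 are left out of the orders given below. Collecting duct-like cells fell mainly in the nephrogenic class of the control (218 cells). In the exposed library 63 fell in the nephrogenic class and 49 in the distal class, where they made up 13.1% of cells. The nephrogenic class also held ureteric bud-like (265 control and 146 exposed), Pcp4 podocyte-like (241 and 139) and loop of Henle-like cells (105 and 7). In the control it had 6 of 13 ureteric bud and collecting duct markers. A joint clustering of both libraries, made without the 10 genes, divided the cells more finely, and 21 of its 24 clusters had a name and at least 50 cells in each library. Levels (CPM) are the UMIs of a gene in every 1000000 UMIs of the class or cluster, mitochondrial UMIs included. Intervals are 95% intervals for counting error alone, and do not include spread between cells or animals.

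The 5 binding protein genes lie at 4 places in the mouse genome (GRCm38, GENCODE). Igfbp2 (chr1:72824503-72852474, plus strand) and Igfbp5 (chr1:72857932-72874884, minus strand) point toward each other with 5457 bases between them. Igfbp3 (chr11:7206086-7213923, minus strand) ends 3539 bases from the 3′ end of Igfbp1. Igfbp4 lies at chr11:99041244-99054392 on the plus strand, and Igfbp7 at chr5:77349240-77408041 on the minus strand. Their core promoters are shown since the 5 genes differed in how their transcripts were divided among cell classes and clusters, which is described after them. Each line gives the 100 bases before the start site of RefSeq (GRCm38.p6), 5′ to 3′ in the direction of the gene, with matches in capitals. For Igfbp2, which has 2 listed starts, the first is shown.
Igfbp2 (chr1:72824380-72824479, plus strand): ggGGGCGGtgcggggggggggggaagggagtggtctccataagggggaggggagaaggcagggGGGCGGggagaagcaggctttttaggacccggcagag
Igfbp3 (chr11:7213924-7214023, minus strand): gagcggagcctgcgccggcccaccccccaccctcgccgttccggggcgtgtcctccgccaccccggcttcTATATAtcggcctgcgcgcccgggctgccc
Igfbp4 (chr11:99041144-99041243, plus strand): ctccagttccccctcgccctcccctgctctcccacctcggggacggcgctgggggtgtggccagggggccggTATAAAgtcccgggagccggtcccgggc
Igfbp5 (chr1:72874866-72874965, minus strand): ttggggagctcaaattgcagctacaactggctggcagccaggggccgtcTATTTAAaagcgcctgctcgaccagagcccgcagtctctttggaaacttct
Igfbp7 (chr5:77408046-77408145, minus strand): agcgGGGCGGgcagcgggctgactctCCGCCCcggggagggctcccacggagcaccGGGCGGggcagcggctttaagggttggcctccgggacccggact
The letters searched, on both strands, were 3 TATA-type words (first TATAAA, then the variant TATATA, last the longer form TATTTAA) and, as GC box, the word GGGCGG. They were chosen after these windows had been read. Igfbp3, Igfbp4 and Igfbp5 hold 1 TATA-type match each, whose first base lies 30, 28 and 51 bases before the RefSeq start, and no GC box. The GENCODE start of Igfbp5 lies further upstream, inside its window, so the distance of its match depends on the start used. Igfbp2 and Igfbp7 hold 2 and 3 GC boxes and no TATA-type match. Among 32851 RefSeq promoter windows of this length, 8.38% hold a TATA-type match and 24.7% a GC box. G and C make up 71% of the Igfbp2, 77% of the Igfbp3, 75% of the Igfbp4, 55% of the Igfbp5 and 77% of the Igfbp7 window, against a median of 55% over all windows. These matches describe the letters only.

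The 5 binding proteins were divided differently among the classes. The class with the largest share of Igfbp2, Igfbp3, Igfbp4 and Igfbp5 was the same in both libraries. For Igfbp3, Igfbp4 and Igfbp5 it was the stroma-like class. Igfbp2 transcripts came mostly from the nephrogenic class, which held 84.2% (82.6 to 85.6) of the control UMIs and 87.2% (85.6 to 88.7) of the exposed UMIs. Ureteric bud-like cells, nearly all of them in this class, had 298 of the 2347 control and 193 of the 1875 exposed UMIs of Igfbp2. The stroma-like class held most Igfbp3 transcripts, 71.8% (70.5 to 73.1) and 64.7% (63.1 to 66.3), and nearly all others lay in the endothelium-like class, 24.4% (23.1 to 25.7) and 33.4% (31.8 to 35). The stroma-like class was also the largest source of Igfbp4, with 41.3% (40.5 to 42) and 40.5% (39.7 to 41.4). For Igfbp5 it held 59.2% (58.3 to 60.2) and 56.7% (55.5 to 57.8). Igfbp7 had no single main source. The stroma-like class held 33.2% (32.8 to 33.7) and 31.3% (30.8 to 31.8), the nephrogenic class 31.3% (30.8 to 31.7) and 31% (30.4 to 31.5), and the small podocyte-like class 13.8% (13.4 to 14.1) and 15.4% (15 to 15.9). In the exposed library the intervals of the stroma-like and nephrogenic shares overlapped. These shares depend on how many cells of each class were captured and on their depth. The podocyte-like class, for example, had 354 and 254 cells, against 3335 and 1963 in the nephrogenic class.

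**Figure D1:**
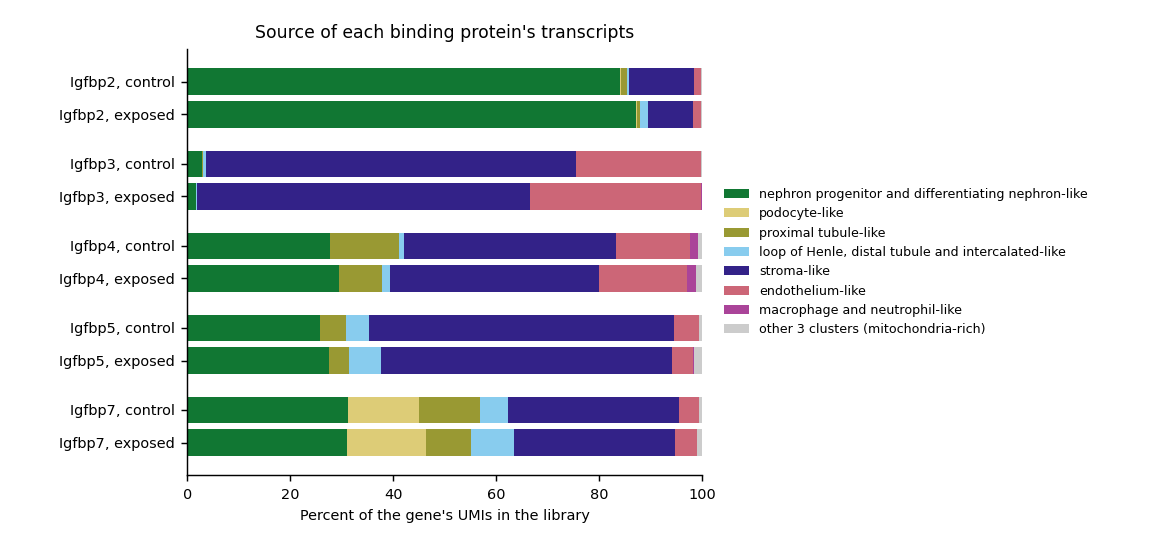
Each bar is 1 binding protein in 1 library and divides the gene's UMIs (x axis, percent) among the authors' clusters, named by markers. Igfbp2 bars are filled mostly by the nephrogenic class and Igfbp3 bars by stroma and endothelium, while Igfbp7 bars are divided among many classes, in both libraries.

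Some UMIs of abundant transcripts reach cells that do not make them. The macrophage and neutrophil-like class (181 and 117 cells, median 2388 and 3101 UMIs) gives a measure of this background for the binding proteins other than Igfbp4. In this class 0.552% and 1.71% of cells had an Igfbp2 UMI in the control and the exposed library. The shares were 0% and 0.855% for Igfbp3, 1.66% and 1.71% for Igfbp5 and 4.97% and 4.27% for Igfbp7. Where the control share of Igfbp3 is 0, a count of 0 allows up to 1.66% of cells.

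Igfbp2, a binding protein of fetal tissues that prefers IGF-II, was high in immature nephron cells and the ureteric bud. Over the authors' classes it stood at 107 CPM (102 to 111) in control and 129 CPM (123 to 135) in exposed cells in the nephrogenic class. The stroma-like class came next at 37.1 and 26.8 CPM, and the remaining classes at 12.5 CPM or less in both libraries. A UMI of Igfbp2 was found in 31.5% and 40.9% of nephrogenic cells (median 4375 and 5462 UMIs), or 16.2% and 20.6% after each cell was thinned to 2000 UMIs (7611 control and 4972 exposed cells in all were deep enough). Both are far above the share in macrophage and neutrophil-like cells.

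In the joint clusters the highest Igfbp2 level of both libraries was in the ureteric bud-like cells (Rprm, Ret), the branching tip epithelium, at 241 and 231 CPM. Its interval overlapped that of the next cluster in both libraries. This was Nts and Penk stroma at 216 CPM in control and Osr2 differentiating nephron-like cells at 205 CPM in exposed cells. The collecting duct, which grows from the bud, had less, and collecting duct-like cells (Aqp2, Fxyd4) held 43.6 and 47.7 CPM, so that the bud-like cluster was 5.54-fold (4.11 to 7.58) higher in control and 4.85-fold (3.47 to 6.92) in exposed cells. Along the nephron, Igfbp2 stood at 132 and 137 CPM in nephron progenitor-like cells (Cited1, Six2), 123 and 129.6 CPM in cycling differentiating nephron-like cells (Wnt4, Cenpf) and 147 and 205 CPM in non-cycling differentiating nephron-like cells (Osr2, Cdh6). It was low in the 2 clusters with differentiated markers of these lineages. Proximal tubule-like cells held 11.6 and 15.5 CPM and podocyte-like cells with Podxl 3.45 and 4.65 CPM. The podocyte-like cells that still expressed Pcp4, by contrast, held 83.1 and 104 CPM. A second place of Igfbp2 was a small stroma-like cluster with Nts and Penk, at 216 and 136 CPM, against 15.4 and 10.6 CPM in the larger Fibin and Ecm1 stroma. Only 26.2% and 25% of the Nts and Penk cells had an Igfbp2 UMI, so the level came from a minority of cells at this depth.

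Igfbp3, the main carrier of IGFs in blood, came from endothelium and stroma, and most strongly from 1 kind of stroma. The endothelium-like class held 433 CPM (408 to 459) in control and 535 CPM (505 to 567) in exposed cells. The stroma-like class held 406 CPM (392 to 420.0) in control and 365 CPM (350.1 to 380.4) in exposed cells. In the control the 2 intervals overlapped, while in the exposed library the endothelium-like level was the higher. The other 8 classes lay at 8.92 CPM or less in both libraries. In the stroma-like class the 13 endothelium markers summed to 203 and 188 CPM, against 9165 and 9469 CPM in the endothelium-like class. The 13 stroma markers summed to 139.6 and 146 CPM in the endothelium-like and 4811 and 5518 CPM in the stroma-like class.

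Within the stroma Igfbp3 was concentrated in cells with Dcn and Col14a1, markers of interstitial fibroblasts, at 1995 CPM (1905 to 2087) in control and 1688 CPM (1599.6 to 1780.0) in exposed cells. This was 8.14-fold (7.48 to 8.87) above the Fibin and Ecm1 stroma in control and 8.76-fold (7.90 to 9.73) in exposed cells. Cycling stroma-like cells (Mxd3, Birc5) held 178 and 189.6 CPM and Nts and Penk stroma 153 and 120.1 CPM. Cells like pericytes, smooth muscle and renin cells (Ren1, Akr1b7; called pericyte-like below), which wrap the vessels, held 46.6 and 25.4 CPM. The share of cells with a UMI ran the same way, with 80.9% and 76.5% in Dcn stroma, 35% and 37.3% in Fibin stroma and 4.24% and 3.78% in the pericyte-like cluster.

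Igfbp4, a binding protein that mainly restrains IGF action, was found in vessels, stroma, proximal tubule and macrophages and was low in podocytes and distal tubule. The endothelium-like class held 876 CPM (840.5 to 913) in control and 999 CPM (957 to 1042) in exposed cells. The stroma-like class held 803 CPM (784 to 823) in control and 835 CPM (812 to 858) in exposed cells. The proximal tubule-like class held 665 CPM (637 to 695) in control and 709.7 CPM (668 to 754) in exposed cells. The macrophage and neutrophil-like class held 489 and 555 CPM and the nephrogenic class 234 and 295 CPM. At the other end were the distal class with 51.5 and 61.9 CPM and the podocyte-like class with 18.1 and 10.1 CPM. The intervals of neighbours in this order did not overlap in either library down to the proximal tubule-like class.

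The joint clusters divided several of these classes. Among leukocytes Igfbp4 belonged to the macrophage-like cells (C1qa, C1qb), with 717 and 724 CPM, and not to the neutrophil-like cells (S100a9, S100a8), with 137 and 64.1 CPM. In the nephron it was 225 and 314 CPM in progenitor-like, 206 and 241 CPM in cycling, 678 and 667 CPM in Osr2 differentiating and 677 and 716 CPM in proximal tubule-like cells. The distal tubule-like cells with Slc12a3 held 52.6 and 57.6 CPM, and the collecting duct-like and intercalated cell-like clusters 21.8 and 24.4 CPM and 23.1 and 19.9 CPM. Proximal tubule-like cells were thus 12.9-fold (9.90 to 17.1) above distal tubule-like cells in control and 12.4-fold (9.05 to 17.6) in exposed cells. In stroma the order was flatter, from 318 and 359 CPM in the pericyte-like cluster to 1225 and 1136 CPM in the Dcn stroma.

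Igfbp5, a binding protein that also attaches to extracellular matrix, was highest in the stroma-like class, at 770.3 CPM (751 to 789.7) in control and 618 CPM (599 to 638) in exposed cells. The endothelium-like (199 and 127 CPM), proximal tubule-like (168 and 168 CPM), distal (157 and 133 CPM) and nephrogenic (145 and 146 CPM) classes followed, in an order that differed between the libraries. The podocyte-like class lay at 16.1 and 6.30 CPM. Of stroma-like cells 47.6% and 44.8% had a UMI of Igfbp5, so it was not detected in many of them at this depth.

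Within the stroma Igfbp5 and Igfbp3 were high in different cells. The pericyte-like cluster held 1110.3 CPM (1036 to 1188) in control and 976 CPM (904 to 1051) in exposed cells. The Fibin stroma held 905 and 815 CPM and cycling stroma 794 and 545 CPM. The Dcn stroma, where Igfbp3 was highest, held 233 and 115 CPM. Fibin stroma was 3.88-fold (3.38 to 4.47) above Dcn stroma in control and 7.08-fold (5.75 to 8.82) in exposed cells, the reverse of the order for Igfbp3. Nts and Penk stroma had a middling level (393 and 360.4 CPM) with a UMI in 16.3% and 17.4% of cells.

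**Figure D2:**
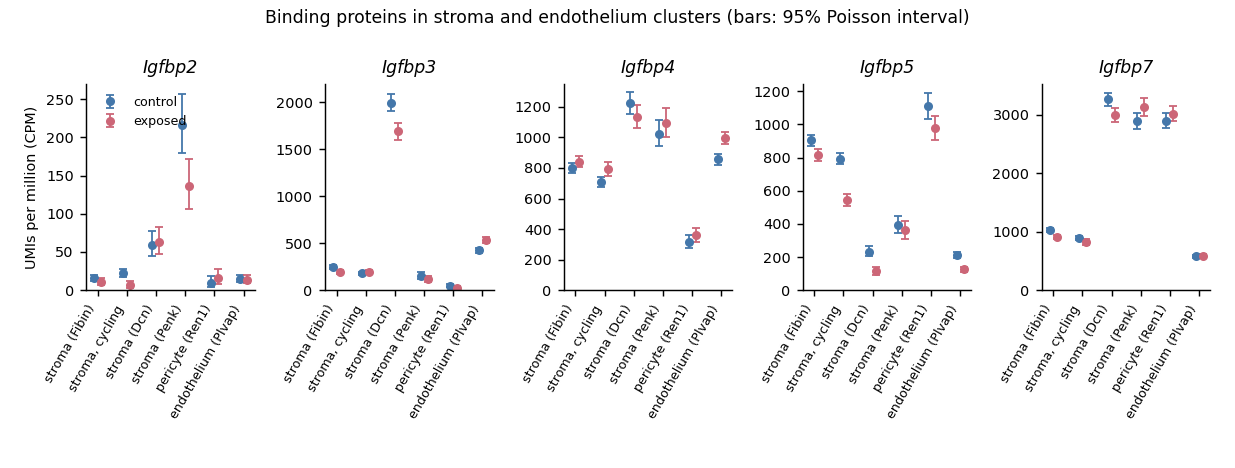
Points give the level of each binding protein (y axis, CPM, linear and starting at 0) in 5 stroma clusters and the endothelium cluster, control in blue and exposed in red, with 95% Poisson intervals. Igfbp3 stands highest in Dcn stroma and Igfbp5 in pericyte-like cells and Fibin stroma in both libraries, and Igfbp5 lies lower in the exposed library in cycling stroma, Dcn stroma and endothelium.

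Outside the stroma Igfbp5 was highest in the nephron progenitor-like and intercalated cell-like clusters. Below them were endothelium-like cells at 213 and 126 CPM and proximal tubule-like cells at 168 and 180.4 CPM. Nephron progenitor-like cells held 406 CPM (382 to 431) in control and 419 CPM (390.5 to 448) in exposed cells. Cycling differentiating nephron-like cells held 120.1 and 97.4 CPM, which put the progenitor-like cluster 3.38-fold (3.07 to 3.73) higher in control and 4.30-fold (3.82 to 4.84) in exposed cells. Intercalated cell-like cells (Atp6v1g3, Foxi1), which secrete acid or base, held 346 and 471 CPM. The neighbouring loop of Henle-like cells (Slc12a1, Umod) held 24.7 and 12.1 CPM and distal tubule-like cells 33.2 and 50.2 CPM.

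Igfbp7 was detected in every cell of the podocyte-like class, 354 of 354 and 254 of 254. Its level there was 5269.8 CPM (5128 to 5415) in control and 6012 CPM (5842 to 6185) in exposed cells. The stroma-like class held 1567 and 1569 CPM, the proximal tubule-like class 1439.5 and 1788 CPM, the distal class 696 and 839.8 CPM, the nephrogenic class 641 and 755 CPM and the endothelium-like class 571 and 584 CPM. The macrophage and neutrophil-like class held 21.5 and 12.1 CPM.

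Along the nephron Igfbp7 separated progenitors from their progeny. Nephron progenitor-like cells held 28.7 CPM (22.6 to 35.9) in control and 15.3 CPM (10.3 to 21.8) in exposed cells. 8.36% and 5.74% of these cells (median 3766 and 4741 UMIs) had an Igfbp7 UMI, not far above the 4.97% and 4.27% of the shallower macrophage and neutrophil-like cells. Cycling differentiating nephron-like cells held 267 and 243 CPM, which was 9.31-fold (7.40 to 11.9) higher in control and 15.9-fold (11.1 to 23.7) in exposed cells. The Osr2 differentiating cells held 2249 and 2357 CPM and the proximal tubule-like cells 1476 and 1899.8 CPM. On the podocyte side, Pcp4 podocyte-like cells held 1849 and 2547 CPM and Podxl podocyte-like cells 4857 and 5669 CPM. The Podxl cells were 2.63 and 2.23 times the Pcp4 cells in the control and the exposed library. Igfbp2 and Igfbp5 were low in the same Podxl cluster.

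**Figure D3:**
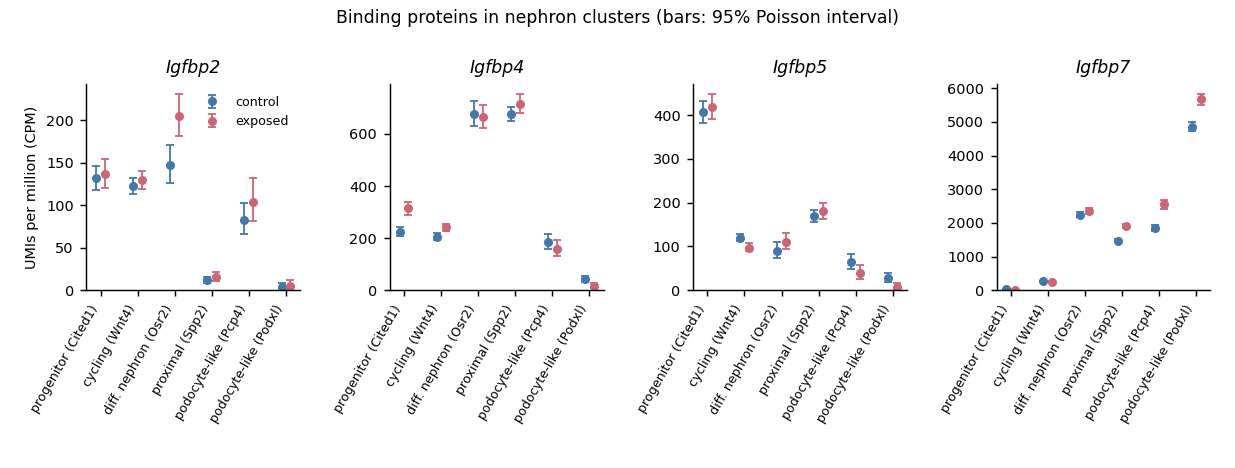
Points give the level (y axis, CPM, linear and starting at 0) of 4 binding proteins in 6 nephron clusters, from progenitor-like to proximal tubule-like and podocyte-like cells, control in blue and exposed in red, with 95% Poisson intervals. Igfbp5 is highest in progenitor-like cells, Igfbp2 in progenitor-like and differentiating cells and Igfbp7 in Podxl podocyte-like cells, in both libraries.

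Igfbp7 also differed within the other compartments. Collecting duct-like cells held 1065 and 1160.3 CPM and ureteric bud-like cells 526 and 458 CPM, the opposite order to Igfbp2. In stroma the Dcn (3261 and 2995 CPM), Nts and Penk (2884 and 3127 CPM) and pericyte-like (2895 and 3015 CPM) clusters stood above the Fibin (1034 and 906 CPM) and cycling (898 and 821 CPM) clusters. Neutrophil-like cells held 242 and 25.6 CPM. In that cluster the 10 podocyte markers summed to 734 and 103 CPM and the 13 stroma markers to 365 and 76.9 CPM, and their part in the Igfbp7 level was not tested. Of its cells 78 in control and 32 in exposed came from the authors' macrophage and neutrophil-like class, which held 10 and 5 Igfbp7 UMIs in all.

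Single cells differed in how many of the 5 binding protein genes they held. After thinning to 2000 UMIs, 69.1% and 60.8% of Dcn stroma cells of the control and the exposed library had UMIs of at least 3 of the 5 genes. In Fibin stroma the shares were 43.2% and 40.5%, in the pericyte-like cluster 25.8% and 24.8% and in endothelium-like cells 20.1% and 19.8%. In Podxl podocyte-like cells 0.422% and 0% had 3 or more, although all had at least 1. Neutrophil-like cells had at least 1 in 31.5% and 8.57%.

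Igf1r, the receptor that carries most IGF signals, was found in every class named above. It was highest in the podocyte-like class, at 213 CPM (186 to 244) in control and 183 CPM (154 to 215) in exposed cells. The proximal tubule-like (134 and 149 CPM), nephrogenic (135 and 119 CPM), distal (78.9 and 111 CPM), stroma-like (94.5 and 96.1 CPM) and endothelium-like (66.7 and 57.2 CPM) classes followed. The proximal tubule-like and nephrogenic classes, and the distal and stroma-like classes, were in opposite order in the libraries. Mitochondrial UMIs made up 25.7% and 17.4% of the distal and 8.12% and 6.13% of the stroma-like totals. Their part in this order was not tested. In the exposed library the intervals of the podocyte-like and the proximal tubule-like class overlapped. The macrophage and neutrophil-like class was lowest, at 21.5 and 38.8 CPM. Both podocyte-like joint clusters were high, with 172 and 197 CPM for Pcp4 cells and 206 and 192 CPM for Podxl cells, and so was Dcn stroma (168 and 181 CPM). In control the ureteric bud-like cells came second at 181 CPM, with an interval that overlapped that of the Podxl cells. In the exposed library the podocyte-like clusters came first and second.

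Igf2r was counted at lower depth, with 525 and 361 UMIs in the nephrogenic class, its largest source. In the proximal tubule-like class its level was 42.7 CPM (35.7 to 50.5) in control and 52.9 CPM (41.9 to 66) in exposed cells. In the endothelium-like class it was 41.3 and 41.5 CPM, and the intervals of these 2 classes overlapped. Pericyte-like cells, with 49.3 and 56.5 CPM, were highest among the joint clusters with a name and 50 cells. Their interval overlapped that of the next cluster in both libraries, Dcn stroma at 44.7 CPM in control and proximal tubule-like cells at 52.5 CPM in exposed cells. The nephrogenic class held 28.3 and 28.5 CPM and the podocyte-like class 19.1 and 13.9 CPM. In the macrophage and neutrophil-like class there were 0 and 2 UMIs.

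Insr, the insulin receptor, was highest in tubule. The proximal tubule-like class held 57.3 CPM (49.2 to 66.3) in control and 48.3 CPM (37.8 to 60.8) in exposed cells. The distal class held 44.6 CPM (37.3 to 53) in control and 36.4 CPM (30.03 to 43.7) in exposed cells. The endothelium-like class held 30.4 and 24.4 CPM, the nephrogenic class 21.3 and 19.1 CPM and the stroma-like class 18 and 16.6 CPM. Among joint clusters proximal tubule-like (56.3 and 47.5 CPM) and Slc12a3 distal tubule-like cells (56.3 and 42.8 CPM) led, while nephron progenitor-like cells held 16.6 and 18.8 CPM. The intervals of all neighbours in the order of joint clusters overlapped in both libraries.

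The docking protein gene Irs2 was lowest in the endothelium-like class, with 3 UMIs in 710 control cells and 2 UMIs in 491 exposed cells. The podocyte-like (41.3 and 45.4 CPM) and nephrogenic (41.8 and 35.2 CPM) classes were highest, and their intervals overlapped. Ureteric bud-like cells led the joint clusters with 106 CPM (88.7 to 126) in control and 108 CPM (86.8 to 133) in exposed cells. Collecting duct-like cells came next among named clusters with 57 and 57.7 CPM, so the bud-like cells were 1.86-fold (1.38 to 2.53) higher in control and 1.87-fold (1.32 to 2.69) in exposed cells. Bud-like cells thus held the highest level of both Igfbp2 and Irs2, though for Igfbp2 the interval overlapped that of the next cluster.

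Irs1 was listed for the exposed library alone and has no control value. It stood at 27.7 CPM (17.4 to 42) in the podocyte-like, 27.5 CPM (22 to 33.9) in the distal, 17.2 CPM (14.1 to 20.8) in the stroma-like and 7.97 CPM (6.49 to 9.69) in the nephrogenic class. No UMI of it was found in the 491 endothelium-like cells, where a count of 0 allows up to 1.38 CPM. Its highest joint cluster was the intercalated cell-like one, at 62.3 CPM (45.8 to 82.9). The interval overlapped that of the next, the pericyte-like cluster at 32.5 CPM. Irs2 and Irs1 were both near or at 0 in endothelium of the exposed library, where Igf1r and Insr had 124 and 53 UMIs.

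**Figure D4:**
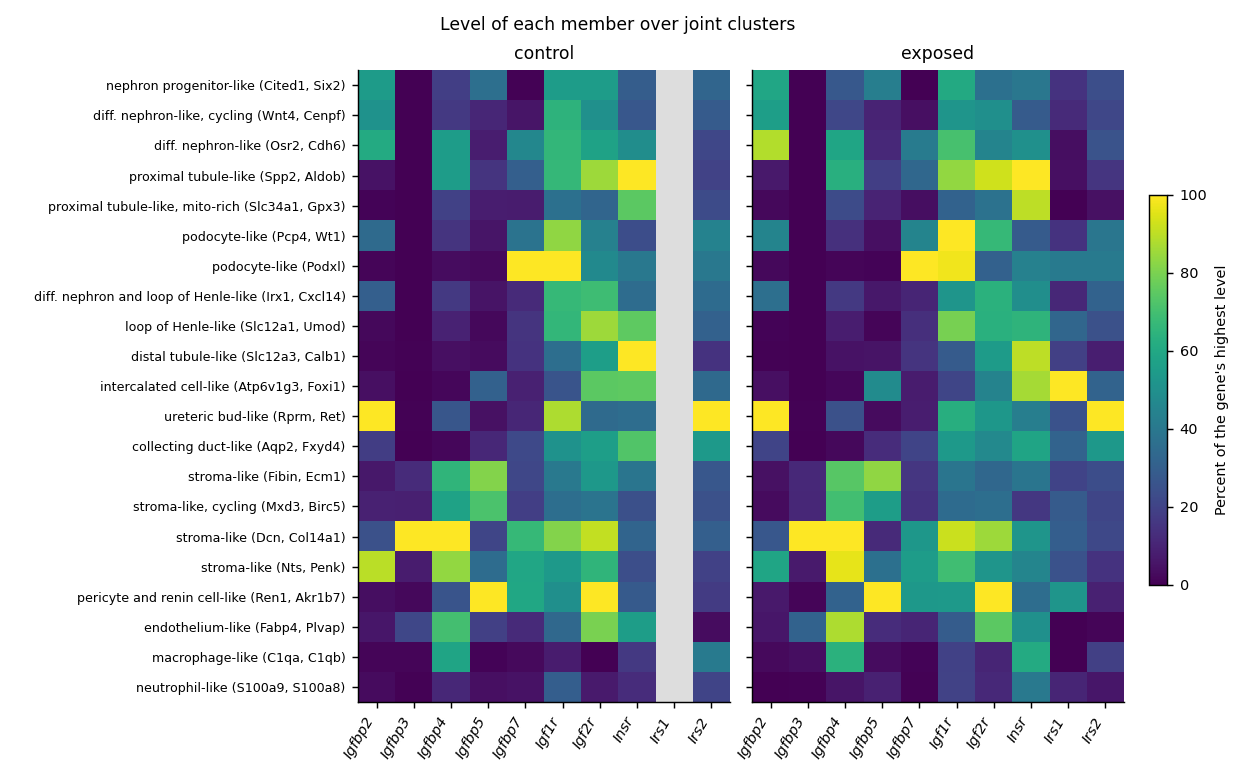
Colour gives the level of each gene (columns) in 21 joint clusters (rows) as a percent of that gene's highest level in the library, control at left and exposed at right, with Irs1 grey where it has no control value. The bright rows of each binding protein are alike at left and right, with Igfbp3 brightest in Dcn stroma and Igfbp7 in Podxl podocyte-like cells.

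The cell types that held each binding protein were alike in both libraries, and differences in level over all cells were small. Pearson's r between the libraries over 21 joint clusters, of log2(CPM + 10) and as a description, ran from 0.943 for Igfbp5 to 0.983 for Igfbp4. A difference was called where log2(CPM + 10) differed by more than 0.32 between the libraries, for genes with at least 50 UMIs over both. Over all cells 0 of the 9 genes listed for both passed, where 136 of 8927 genes (1.52%) did. The exposed over control ratio was 1.11 (1.04 to 1.18) for Igfbp2, 1.06 (1.02 to 1.11) for Igfbp3, 1.12 (1.10 to 1.15) for Igfbp4 and 1.13 (1.11 to 1.15) for Igfbp7. It was 0.892 (0.865 to 0.920) for Igfbp5, 0.968 (0.923 to 1.01) for Igf1r, 1.06 (0.965 to 1.15) for Igf2r, 0.900 (0.814 to 0.994) for Insr and 0.860 (0.784 to 0.944) for Irs2. The median log2 ratio was 0.06 over the 9 genes and 0.04 over all genes. The ratios over all cells also carry the different share of each class and of mitochondrial UMIs in the libraries.

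By class, 0 of 9 passed in the nephrogenic class, where 6.45% of genes did. In the stroma-like class 1 of 9 did, against 3.58% of genes, and in the endothelium-like class 1 of 8, against 11.8%. In the podocyte-like class 0 of 3 genes with enough UMIs did (19.4% of genes), in the proximal tubule-like class 1 of 7 (14.2%) and in the distal class 1 of 7 (25.6%). In the mitochondria-rich classes 1 of 4 proximal (43.3% of genes) and 2 of 2 distal (45.2%) did, all higher in the exposed library. Such counts among at most 9 genes are not a result about these genes as a group. Outside the mitochondria-rich classes, the 4 that passed were Igfbp2 in stroma, Igfbp5 in endothelium, Irs2 in proximal tubule and Igf1r in the distal class.

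The 3 in mitochondria-rich classes were Igfbp5 in the proximal one, with 107 and 144 CPM and a ratio of 1.35 (0.883 to 2.08), and Igfbp7 and Igf1r in the distal one. Igfbp7 had 62 and 184 UMIs there, a ratio of 1.82 (1.36 to 2.46), and Igf1r at 51.6 and 77 CPM, a ratio of 1.49 (0.815 to 2.86). The intervals of Igfbp5 and Igf1r hold 1. The log2 ratio of Igfbp5 fell short of a call in the joint clustering, at 0.09, and that of Igf1r where mitochondrial UMIs were left out, at 0.30.

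Igfbp5 in the endothelium-like class had the widest gap of the 4 other calls on the log2 scale. It stood at 199 CPM (182 to 217) in control and 127 CPM (112 to 143) in exposed cells, a ratio of 0.638 (0.549 to 0.740), lower than all but 0.683% of the genes tested in that class. The 13 stroma markers summed to 139.6 and 146 CPM in these cells. The 5 cells with most UMIs held 21% and 18.9% of the class's Igfbp5 UMIs in the control and the exposed library, and the log2 ratio was -0.57 without them and -0.61 with them. Cells of the class were divided into 9 subclusters after these values had been seen. The subcluster with Cryab and Col4a3 held 519 and 319 CPM, a ratio of 0.615 (0.478 to 0.788). One led by mitochondrial transcripts held 319 and 203 CPM, a ratio of 0.637 (0.450 to 0.892). One with Dlk1 and Tnfrsf11b (26 and 15 cells) held 329 and 56.1 CPM from 39 and 8 UMIs, a ratio of 0.170 (0.0688 to 0.370). Cells with Rgs16 and Kit held 20.6 and 56.9 CPM from 6 and 14 UMIs, with a ratio of 2.76 (0.996 to 8.76), an interval that holds 1.

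Igfbp3 had no such gap in the same cells. Its endothelium-like level was 1.24 times the control level (433 and 535 CPM), short of a call. In the Rgs16 and Kit subcluster it held 619 and 878 CPM, a ratio of 1.42 (1.16 to 1.74), and in cycling endothelium 587 and 530.3 CPM, a ratio of 0.903 (0.774 to 1.05). After thinning, the log2 ratio of Igfbp3 in the endothelium-like class was -0.02, against 0.30 without, and that in the stroma-like class 0.15, against -0.15 without. No direction is therefore given for Igfbp3 between the libraries.

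Igfbp2 was lower in stroma of the exposed library, past the fold set, and higher in the nephrogenic class, short of it. In the stroma-like class it stood at 37.1 CPM (33 to 41.6) in control and 26.8 CPM (22.9 to 31.2) in exposed cells, a ratio of 0.722 (0.593 to 0.876). In the stroma clusters of the joint clustering together its log2 ratio was -0.32, just short of the call, against -0.36 in the authors' class. Cycling stroma had 60 and 10 UMIs (21.8 and 6.38 CPM), and Nts and Penk stroma 127 and 69 UMIs (216 and 136 CPM). Dcn stroma lay slightly the other way, with 56 and 51 UMIs (59.6 and 63.1 CPM). In the nephrogenic class the ratio was 1.21 (1.13 to 1.29), and in Osr2 differentiating nephron-like cells 1.39 (1.15 to 1.70).

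Igfbp5 in the stroma-like class had a ratio of 0.803 (0.771 to 0.836), just short of a call, and past it where mitochondrial UMIs were left out (log2 ratio -0.34 against -0.31). It lay below all but 2.16% of genes. Its ratio was 0.493 (0.383 to 0.631) in Dcn stroma, 0.686 (0.633 to 0.742) in cycling stroma, 0.900 (0.850 to 0.953) in Fibin stroma and 0.879 (0.794 to 0.973) in pericyte-like cells. Among the 18 joint clusters with at least 50 UMIs of Igfbp5 over both libraries, the ratio was below 1 in 11, with its interval below 1 in 9. It was above 1 beyond its interval in 1, the intercalated cell-like cluster, with 1.36 (1.18 to 1.57). These clusters come from the same 2 libraries and are not replicates.

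Igfbp4 and Igfbp7 had ratios both above and below 1. Among 18 joint clusters with at least 50 UMIs, that of Igfbp4 was above 1 in 11 and below 1 in 7, with the interval above 1 in 4 and below 1 in 2. It was lowest in Podxl podocyte-like cells, at 0.412 (0.215 to 0.748) from 49 and 15 UMIs. Of these cells 344 and 253 lay in the authors' podocyte-like class, which held 18 and 8 Igfbp4 UMIs in all. Another 41 and 13 of the Podxl cells lay in the nephrogenic class, and their part in this ratio was not tested. In the nephrogenic class the ratio of Igfbp4 was 1.26 (1.20 to 1.31), higher than 98.1% of genes, which with 10 CPM added falls just short of a call. The make-up of the class differed: collecting duct-like cells made up 6.54% of it in control and 3.21% in exposed kidney, and form a cluster with 21.8 and 24.4 CPM of Igfbp4, and the part of this in the ratio was not tested. With nephrogenic clusters of the joint clustering the log2 ratio was 0.19, against 0.32. In nephron progenitor-like cells the ratio of Igfbp4 was 1.39 (1.24 to 1.56), with a UMI in 44.7% and 63.6% of cells, or 32% and 39.8% after thinning. Igfbp7 stood at a ratio of 1.14 (1.10 to 1.19) in the podocyte-like and 1.24 (1.18 to 1.30) in the proximal tubule-like class. In Pcp4 podocyte-like cells its ratio was 1.38 (1.29 to 1.47). Its intervals lay above 1 in 6 and below 1 in 9 of 21 joint clusters, so it had no common direction.

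Irs2 in the proximal tubule-like class had 66 and 20 UMIs (21 and 13.4 CPM) and a ratio of 0.638 (0.366 to 1.07), whose interval holds 1. With proximal tubule-like cells of the joint clustering its log2 ratio was -0.22, against -0.41, and no call. Igf1r in the distal class stood at 78.9 and 111 CPM, a ratio of 1.40 (1.18 to 1.67). Some collecting duct-like cells were part of this class, in the exposed library only, and their part was not tested. With the distal cells of the joint clustering, the log2 ratio was 0.09, and with thinned cells 0.15, in place of 0.44. In the distal class the median log2 ratio of all genes was 0.14, and relative to it that of Igf1r was 0.30, also short of a call. The ratio of Igf1r was 0.681 (0.534 to 0.864) in ureteric bud-like and 0.767 (0.681 to 0.863) in cycling differentiating nephron-like cells.

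**Figure D5:**
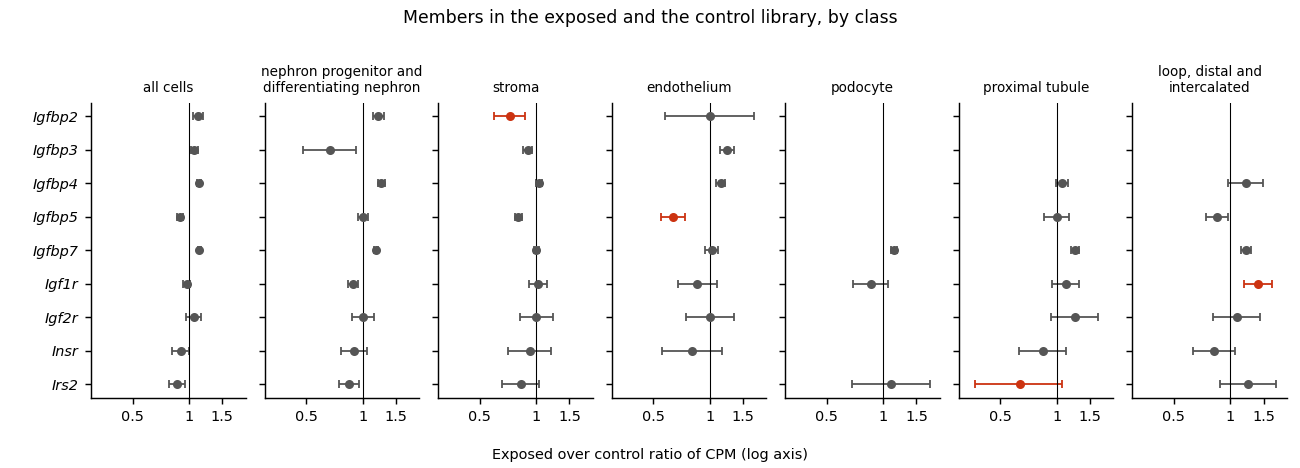
Points give the exposed over control ratio of CPM (x axis, log scale) for 9 genes in all cells and in 6 classes, where a gene had at least 50 UMIs over both libraries, with 95% conditional binomial intervals. Red points passed a log2 difference of 0.32 after 10 CPM was added to each side: Igfbp2 in stroma, Igfbp5 in endothelium, Irs2 in proximal tubule and Igf1r in the distal class.

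A further list of 43 genes of insulin and IGF signalling was read in the same way. It had 36 genes listed for both libraries, all with enough UMIs, and 0 of the 36 were called higher and 0 lower over all cells (1.52% of all genes were called). Their median log2 ratio was 0.04, equal to that of all genes. Igf2 is on this list but was listed for neither library, so it has no value here. Igf1, the ligand, was highest in the endothelium-like class, at 404 and 443 CPM. Igfbp1, the neighbour of Igfbp3, led in the proximal tubule-like class at 19.7 and 25.5 CPM, and Igfbp6 in the podocyte-like class at 62.4 and 78.1 CPM. Among joint clusters Igfbp6 led in the Pcp4 podocyte-like cells, most of which the authors' clusters placed in the nephrogenic class, at 173 and 141 CPM.

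Proteases and inhibitors that act on binding proteins had sources of their own. Pappa2, which cuts Igfbp3 and Igfbp5, led in loop of Henle-like cells at 258 and 232 CPM, and Pappa, which cuts Igfbp4, in collecting duct-like cells at 83 and 63.2 CPM. Stc1, a stanniocalcin of the family that blocks these proteases, was also highest in collecting duct-like cells, at 189 and 313 CPM. Htra1, a secreted serine protease, was highest in the podocyte-like class, at 184 and 213 CPM, with a ratio of 1.38 (1.17 to 1.62) over all cells from a level of 7.88 and 10.9 CPM. Grb10, an adaptor that dampens both receptors, stood at 96.6 and 94.7 CPM over all cells.

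Among 8473 genes with at least 200 UMIs in each library, those whose levels over the 20 clusters of both libraries were most like each binding protein were named, with Pearson's r of log2(CPM + 10) as a description. Igfbp2 was most like Nnat (0.93), Etv4 (0.93) and 2610318n02rik (0.92), and Igfbp3 most like Piezo2 (0.99), Adamtsl1 (0.99) and Sparcl1 (0.99). Igfbp4 was most like Fam126a (0.93), Mcm6 (0.92) and Ralb (0.92), Igfbp5 most like Atrnl1 (0.90) and Nfib (0.89) and Igfbp7 most like Tead1 (0.95), Timp3 (0.95) and Arhgef17 (0.94). The 20 clusters include the mitochondria-rich and unnamed ones left out of the orders above, and their part in r was not tested. The clusters share 2 libraries, so these values carry no test.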

How the data were processed

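Whole kidney at postnatal day 2 was measured by 10x Genomics 3′ single-cell RNA sequencing in 1 control and 1 exposed library. Kidneys were dissociated with trypsin, filtered and frozen, per the labels' protocols. Cell Ranger 2.2.0 and mm10 (GRCm38) are named in the submitters' processing notes. The authors deposited whole-number UMI counts per gene and cell, not normalized. The percent of mitochondrial UMIs, the doublet scores and the cluster of each cell are the authors' own, per the file headers. Some genes are listed for 1 library only, by a rule not given in the sources used here.

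No cell was left out, and doublets were kept. Counts were summed by library and class, since cells are not replicates. Authors' clusters were named where at least 3 markers of a list were detected (at least 10% of cells and 2-fold over the rest). Levels have exact Poisson, shares exact Clopper-Pearson and ratios exact conditional binomial 95% intervals. These cover counting error only, treat each UMI as independent and are too narrow where few cells hold many UMIs. Differences were called past 0.32 on the scale of log2(CPM + 10), at 50 or more UMIs. Floors for a count of 0 use 3 counts. The call rule and intervals were tested on simulated data. Joint clusters used scanpy 1.11.5 (2000 variable genes, 30 principal components, 15 neighbours, Leiden resolution 1, igraph 0.11.9) without the 10 genes. Named genes were the 10, up to 8 of the signalling list with their leading class, and the 3 most alike per binding protein, of which 1 is not reported here. Members, lists and cluster names were chosen with earlier results of these data known. Gene positions are from GENCODE vM21 and promoters from RefSeq, where Insr had no entry.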

Additional observations from a re-analysis of the deposited data

How the results depend on the processing

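With 1 library per group, nothing here measures variation between animals, and genes under about 50 UMIs in a class could not be compared. No paired analysis was possible because each group has a single library and no test was made.

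Without cells over 25% mitochondrial UMIs the stroma-like class held 42.2% of control Igfbp4 UMIs, 60.8% and 57.9% of Igfbp5 (control and exposed) and 34.4% and 32.2% of Igfbp7. Without cells with a hybrid doublet score over 1 it held 74.8% and 67.7% of Igfbp3, and 43.4% of control Igfbp4. It then held 61.3% of control Igfbp5 and 34.6% and 32.0% of Igfbp7. In the joint clustering 82.2% of control Igfbp2 lay in nephrogenic clusters and 57.9% of exposed Igfbp5 in stroma. The remaining 17 such values moved by less than their counting interval.

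Past 1.5-fold 0 genes were called in the stroma-like, 0 in the proximal tubule-like, 0 in the distal, 0 in the mitochondria-rich proximal and 1 in the mitochondria-rich distal class. With at least 10 UMIs 2 were called in the podocyte-like, 3 in the distal, 4 in the mitochondria-rich proximal and 6 in the mitochondria-rich distal class. The other 9 such counts kept within 1.5 times. Of the log2 ratios under alternatives, 41 moved beyond their counting interval and 414 did not. Of the levels 15 moved and 25 did not, and of the percents of cells with a UMI 8 moved and 2 did not. None of the 7 called differences changed sign under the alternatives run. The mitochondria-rich classes kept too few cells under the mitochondrial limit, and the distal one too few in the joint clustering, for a value. The log2 ratio of Igfbp5 in the endothelium-like class ran from -0.71 in the joint clustering to -0.48 after thinning or, chosen after seeing the data, without cells with 3 or more stroma marker UMIs.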
